A study of Homo sapiens with 9 samples.

Results

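The genes described here are the multicopy cancer-testis families other than MAGE. They were taken by symbol, as every gene symbol that starts with GAGE, PAGE, XAGE, SSX, CT45A, CTAG, CT47 or SPANX followed by a letter or digit. That rule took 85 of the 23284 symbols in the RNA-Seq files. Of these, 74 are copies of the 8 families (21 GAGE, 6 PAGE, 9 XAGE, 9 SSX, 2 CTAG, 6 CT45A, 10 CT47 and 11 SPANX). Another 11 share only the first letters (9 CTAGE genes, SSX2IP and the long non-coding RNA SPANXA2-OT1) and were kept apart. The copies stood on 109 file entries, and entries of the same symbol were summed.

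HT-29 is a human colon cancer cell line. Cultures received the vehicle DMSO (0 µM 5-Aza, the control), 5 µM 5-Aza or 10 µM 5-Aza for 5 days, with 3 replicate cultures per group and 9 libraries in all. The labels name no genetic change, so the groups differ by label only in the drug concentration, and all of the data come from this single cell line. 5-Aza (5-aza-deoxycytidine) is a cytidine analog that is built into DNA and traps DNA methyltransferases, so that newly copied DNA loses methyl groups at CG dinucleotides.

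Cancer-testis genes are read mainly in the germ cells of the testis, and some also in placenta, while most other adult tissues keep them silent. Methylation of CG dinucleotides at their promoters is a known part of that silencing, and many tumors express some of them, which made their proteins targets for immunotherapy. The families treated here lie mostly on the X chromosome in clusters of near-identical copies. GAGE, PAGE and XAGE encode small, similar proteins and form one superfamily. SSX proteins are nuclear repressors of transcription, known from the SS18-SSX fusions of synovial sarcoma, and CTAG1A and CTAG2 encode the tumor antigens NY-ESO-1 and LAGE-1. SPANX proteins associate with the nucleus of sperm, and CT45A and CT47 encode further testis proteins found in tumors.

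All 63 copies that matched the GRCh37 annotation (the assembly called hg19 in the labels) were on the X chromosome. The 16 matched GAGE copies lay in 1 cluster at chrX:49160125-49373141, the 5 matched CT45A copies at chrX:134847185-134971244 and the 10 CT47 copies at chrX:120006461-120119614. The XAGE copies were spread over chrX:52112164-52897114, and CTAG1A and CTAG2 lay within chrX:153813397-153881853. PAGE, SSX and SPANX copies were split between several places on the chromosome.

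RefSeq promoters (GRCh38.p14, 250 bases before to 50 bases after the start of the gene) were given for 37 of the 74 copies. The 6 below are shown because the drug acts on CG dinucleotides, which are in capitals. GAGE12F (chrX:49560592-49560891, plus strand), PAGE2B (chrX:55074780-55075079, plus strand) and XAGE1A (chrX:52495627-52495926, plus strand) were among the highest copies at 5 µM. SSX1 (chrX:48255142-48255441, plus strand) also rose and has 5 CG dinucleotides. PAGE4 (chrX:49829053-49829352, plus strand) and SPANXN2 (chrX:143720703-143721002, minus strand) were listed at 0 in all 9 libraries.
GAGE12F: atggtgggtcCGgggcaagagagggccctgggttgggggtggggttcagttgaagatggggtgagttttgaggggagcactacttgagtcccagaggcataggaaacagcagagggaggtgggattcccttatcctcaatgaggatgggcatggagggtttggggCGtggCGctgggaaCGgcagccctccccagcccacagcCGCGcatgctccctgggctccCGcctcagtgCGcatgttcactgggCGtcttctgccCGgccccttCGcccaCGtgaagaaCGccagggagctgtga
PAGE2B: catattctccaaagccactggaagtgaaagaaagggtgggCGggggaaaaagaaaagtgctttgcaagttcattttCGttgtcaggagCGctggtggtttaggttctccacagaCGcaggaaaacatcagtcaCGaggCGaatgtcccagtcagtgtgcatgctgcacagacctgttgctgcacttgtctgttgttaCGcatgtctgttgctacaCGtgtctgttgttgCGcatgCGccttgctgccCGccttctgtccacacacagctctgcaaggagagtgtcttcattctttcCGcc
XAGE1A: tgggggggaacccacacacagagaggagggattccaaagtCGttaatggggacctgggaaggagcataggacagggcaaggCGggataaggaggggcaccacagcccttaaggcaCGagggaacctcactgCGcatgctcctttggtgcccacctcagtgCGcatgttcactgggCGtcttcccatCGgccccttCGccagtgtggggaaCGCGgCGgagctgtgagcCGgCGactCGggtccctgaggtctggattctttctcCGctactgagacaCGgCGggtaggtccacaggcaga
SSX1: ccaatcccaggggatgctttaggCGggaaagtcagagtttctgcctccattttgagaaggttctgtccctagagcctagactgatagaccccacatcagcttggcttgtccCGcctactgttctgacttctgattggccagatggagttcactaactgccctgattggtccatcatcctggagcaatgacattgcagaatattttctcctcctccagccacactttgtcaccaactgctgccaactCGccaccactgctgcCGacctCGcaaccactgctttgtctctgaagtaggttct
PAGE4: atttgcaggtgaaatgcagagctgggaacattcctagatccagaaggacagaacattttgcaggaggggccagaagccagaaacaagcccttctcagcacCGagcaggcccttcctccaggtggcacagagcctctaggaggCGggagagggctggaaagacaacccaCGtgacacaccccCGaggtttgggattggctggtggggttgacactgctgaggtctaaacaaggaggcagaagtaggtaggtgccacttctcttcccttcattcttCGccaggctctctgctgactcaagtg
SPANXN2: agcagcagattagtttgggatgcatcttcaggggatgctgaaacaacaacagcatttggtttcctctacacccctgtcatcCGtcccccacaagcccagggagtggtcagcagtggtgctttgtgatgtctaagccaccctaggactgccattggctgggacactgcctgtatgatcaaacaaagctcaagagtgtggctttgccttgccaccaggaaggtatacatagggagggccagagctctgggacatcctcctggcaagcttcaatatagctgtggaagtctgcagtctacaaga

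The number of CG dinucleotides in these 300 bases was 13 for GAGE12F, 12 for PAGE2B, 17 for XAGE1A, 5 for SSX1, 5 for PAGE4 and 1 for SPANXN2. Where a gene had several promoters, the one with the most was counted. Over the 37 copies the median was 10 (range 1 to 17), and 22 (59.5%) had at least 10, close to the 58.5% of 27305 symbols with a RefSeq promoter, whose median was 16. The 20 copies that reached 10 FPKM in all 3 libraries at 5 µM had a median of 13 and the 17 others a median of 6. The 11 GAGE promoters held 11 to 13 and the 8 SPANX promoters 1 to 8, so the split follows family in part, and copies of a family are not independent of each other. Within GAGE, PAGE and XAGE the medians were 13 (17 copies) and 10 (5 others). XAGE2, at 0 in every library, had 10, and GAGE12D and GAGE13, under 10 FPKM in every library, had 13. A link between CG number and response was not tested. Read base by base from the start site, 6 GAGE copies (GAGE1, GAGE12C, GAGE12D, GAGE12E, GAGE12J and GAGE2A) had a promoter identical to that of GAGE12F. GAGE13 differed from it at 1 base. The comparison allowed no gaps or shifts, so it finds only promoters that match from the same start, and nothing is read from it for other pairs or families.

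**Figure D1:**
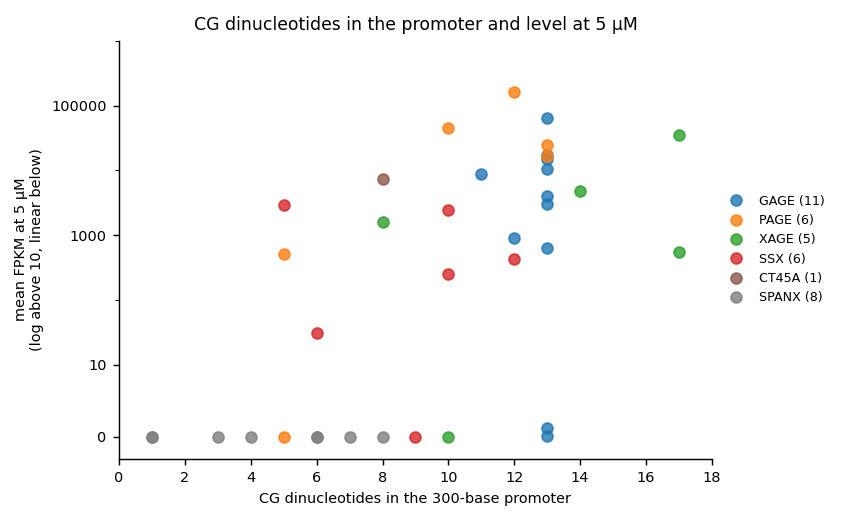
CG dinucleotides in the 300-base RefSeq promoter (horizontal axis, count) and mean FPKM over the 3 libraries at 5 µM (vertical axis, log above 10 and linear below) for the 37 copies with a promoter, coloured by family. The 8 SPANX copies sit at 0 FPKM with 1 to 8 CG dinucleotides, and PAGE2B, at the top, has 12.

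The values are FPKM, fragments scaled by transcript length and by library as the authors computed them, and their scale has to be known to read them. The FPKM of a library summed to between 3.69e+09 and 5.91e+09, so they are relative values. From the steps in which low values rise, 1 fragment on a transcript of 600 nucleotides was worth between 764 FPKM (5 µM replicate 3) and 1966 FPKM (control replicate 1). The term that divided each library, relative to control replicate 1, was 1 to 2.14 in the control, 2.29 to 2.57 at 5 µM and 1.27 to 2.01 at 10 µM. On longer transcripts 1 fragment is worth less, so that 730 FPKM of SSX1 in 10 µM replicate 2 stand for an estimated 1.91 fragments. Values below 1 fragment arise where Cufflinks shares fragments out among near-identical copies. All 11 colon epithelial markers reached 10 FPKM in every library, and their summed FPKM was 9.03e+07 to 1.09e+08 in the control, 3.77e+07 to 4.24e+07 at 5 µM and 2.96e+07 to 5.21e+07 at 10 µM. The keratins KRT8 and KRT18 carry most of this sum, and with KRT19 they fell at 5 µM (log2 differences of -1.65, -1.64 and -1.79), whereas CDX1 (2.14) and CEACAM5 (1.59) rose and EPCAM (-0.23) and CDH1 (-0.06) were not called. CDX2 (-0.73), KRT20 (-0.46), LGALS4 (-0.87) and VIL1 (-0.47) were also not called, but were lower in every library at 5 µM than in the control. In 10 µM vs. 0 µM, KRT19, KRT20 and CDX2 were called lower. The 6 late spermatid markers were listed at 0 in the control. At 5 µM, 3 of them (TNP1, ODF1 and AKAP4) were still at 0, and the 6 summed to 2025 to 4671 FPKM, against 0 to 1980 at 10 µM. PRM2 was called up at 5 µM (limma adjusted p = 0.000726) and down from 5 µM to 10 µM (limma adjusted p = 0.0059). Leukocyte markers summed to 36280 to 48157 in the control, 36534 to 44704 at 5 µM and 40357 to 50381 at 10 µM, nearly all of it CD14, and fibroblast markers to 5831 to 9138, 32267 to 45146 and 18012 to 25220. COL1A1 carried most of the fibroblast sum, and DCN was at 0 at 5 µM. COL1A1 was called up in 5 µM vs. 0 µM (log2 difference 2.53, limma adjusted p = 0.000944) and in 10 µM vs. 0 µM (1.75, limma adjusted p = 0.0163). COL1A2 was called up at 5 µM (limma adjusted p = 0.023) and down from 5 µM to 10 µM (limma adjusted p = 0.0095). CD3E, at 0 in the control, was called up at 5 µM (limma adjusted p = 0.000793) with a mean of 804 FPKM. The part of these shifts in the results was not tested. In bulk RNA, a larger number of expressing cells and more RNA per cell cannot be told apart.

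The copies were almost silent in the control, high at 5 µM and low again at 10 µM. Over all families together, the estimated number of fragments per library was 0 to 5.38 in the control, 676 to 908 at 5 µM and 15.5 to 58.9 at 10 µM. Of the 74 copies, 0, 5 and 9 reached 10 FPKM in the 3 control libraries, 40, 47 and 40 at 5 µM, and 18, 30 and 27 at 10 µM. A total of 37 copies reached it in all 3 libraries at 5 µM and 16 in all 3 at 10 µM. Another 22 copies stayed under 10 FPKM in every library, of which 16 were listed at 0 throughout. The plot of family sums by library shows the same course for GAGE, PAGE, XAGE, SSX, CTAG and CT45A. The fragments and the numbers of copies above were not scaled for depth, and 10 FPKM is far below 1 fragment. The library term was highest at 5 µM (2.29 to 2.57, against 1 to 2.14 in the control and 1.27 to 2.01 at 10 µM). Within the control and the 10 µM group, the number of copies reaching 10 FPKM rose with this term, but not at 5 µM.

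**Figure D2:**
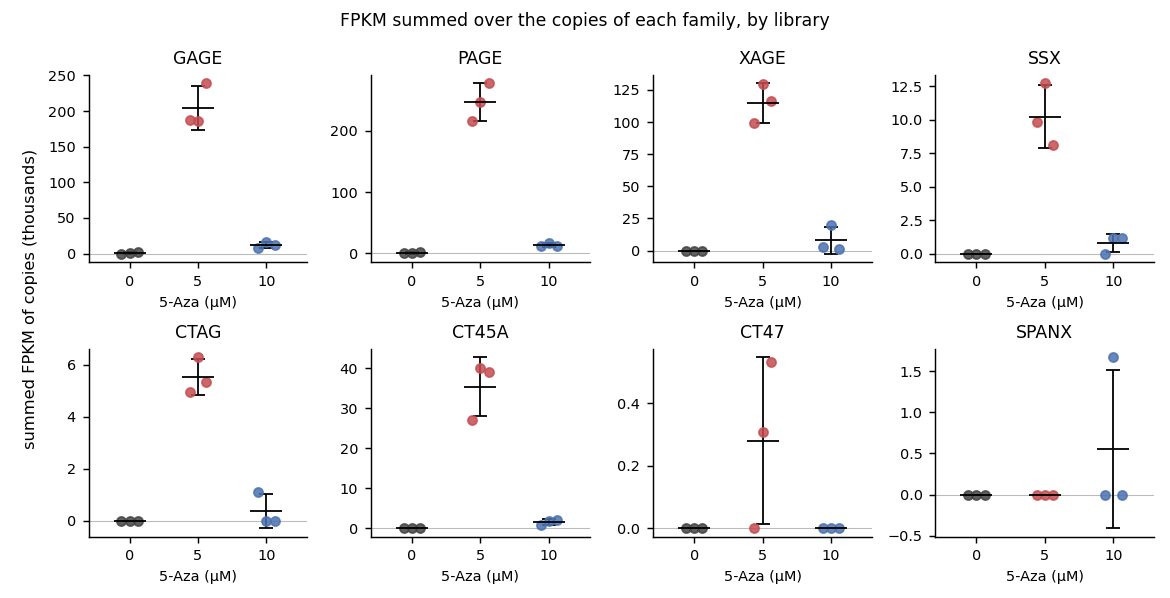
FPKM summed over the copies of each family (vertical axis, linear, scaled per family) against the 5-Aza concentration (horizontal axis, µM). Points are the 3 libraries of a group, and the black bar with whiskers is their mean and SD. In GAGE, PAGE, XAGE, SSX, CTAG and CT45A the 3 libraries at 5 µM sit above all others, CT47 reaches at most 531 FPKM, and SPANX has 1 library above 0.

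Since copies of GAGE, XAGE, CT45A and CT47 share most of their transcript sequence, each family was first read as a sum per library, which carries no test here. The GAGE sum was 0, 1019 and 2893 FPKM in the control, 186769, 185586 and 239246 FPKM at 5 µM, and 7698, 16433 and 12387 FPKM at 10 µM. These are means of 1304 ± 1467, 203867 ± 30645 and 12173 ± 4372 (SD, n = 3), and the 3 groups did not overlap. The mean at 10 µM was 5.97% of that at 5 µM. Behind the GAGE sum stood an estimated 0, 0.762 and 2.9 fragments in the control, 220.2, 209 and 294 in the 5 µM libraries, and 4.75, 15.9 and 9.95 in those of 10 µM. GAGE12B, with an annotated 117 nucleotides, is too short for the estimate and enters with -0.403 to -0.034 at 5 µM. GAGE1 enters with 24.8, 27.6 and 26.7 fragments at 5 µM on an annotated 2993 nucleotides, against 540 for GAGE10. Whether that length is right for GAGE1 here was not tested.

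The PAGE sum reached the highest level of the 8 families. It was 0, 0 and 2681 FPKM in the control, 216536, 246988 and 277947 FPKM at 5 µM, and 11768, 17466 and 11611 FPKM at 10 µM, where it stood at 5.51% of the 5 µM mean. The XAGE sum was listed at 0 in the control, was 98919, 129591 and 116313 FPKM at 5 µM and 2945, 20043 and 1100 FPKM at 10 µM (6.99%). XAGE replicate 2 at 10 µM thus lay well above the other two, with 16.3 estimated fragments against 1.52 and 0.762. Entries that carry the same values in all 9 libraries under different symbols occurred in XAGE (13 entries above 10 FPKM in 8 sets of values). This sum may thus count some values more than once, unless equal entries are equal shares, which was not tested.

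The CT45A sum was listed at 0 in the control, was 27036, 40164 and 39150 FPKM at 5 µM and 755, 1731 and 1999 FPKM at 10 µM (4.22%). SSX copies were at 0 in the control, at 9876, 12756 and 8108 FPKM at 5 µM and at 0, 1162 and 1198 FPKM at 10 µM (7.68%). CTAG1A and CTAG2 together were at 0 in the control, at 4950, 6277 and 5319 FPKM at 5 µM and at 1122, 0 and 0 FPKM at 10 µM (6.78%). In all of these families the 5 µM libraries lay above every other library. On the log2 scale the sums were lower at 10 µM than at 5 µM by -4.12 (GAGE), -4.20 (PAGE), -4.83 (XAGE) and -4.66 (CT45A), in the families with no library at 0 in either group.

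CT47 and SPANX did not take this course. The CT47 sum was 0, 309 and 531 FPKM at 5 µM, and 0 in all other libraries. With entries of equal values counted once, this was an estimated 0, 0.13 and 1.85 fragments. The value of replicate 2 was divided over the 9 CT47A copies in parts of 14 to 84.3 FPKM, and that of replicate 3 stood in CT47B1 alone. These parts were 0.0395 to 0.27 estimated fragments each, so 0.13 is too low if equal entries are shares of 1 fragment. Whether they are was not tested. SPANX was above 0 only in 10 µM replicate 2, in SPANXE, with 1669 FPKM or an estimated 1.66 fragments. The other 10 SPANX copies were listed at 0 throughout. At this depth no difference between groups was detectable in either family.

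**Figure D3:**
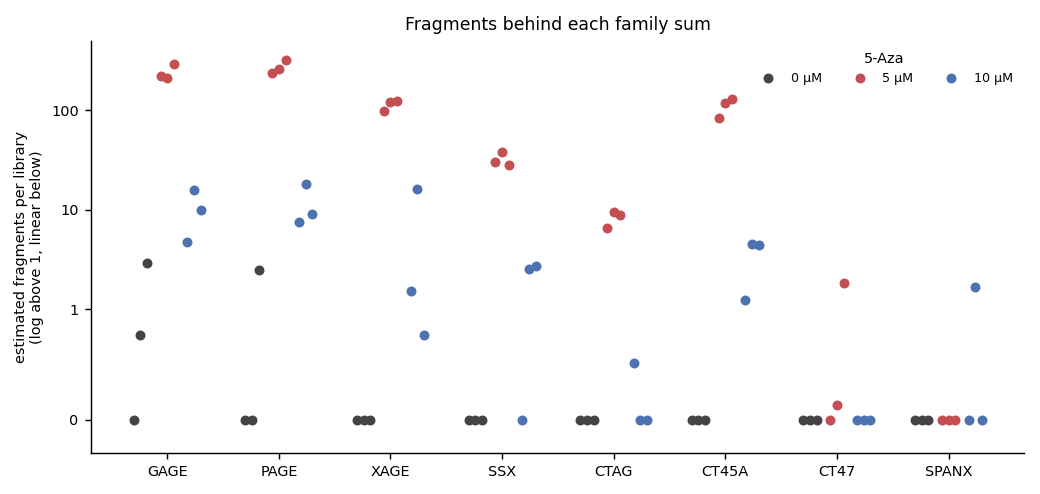
Estimated fragments per library behind each family sum (vertical axis, log above 1 and linear below), with entries of the same values counted once. The 3 points of each colour are the libraries at 0 µM, 5 µM and 10 µM. At 10 µM no family passes 18 fragments in any library, whereas GAGE, PAGE and XAGE hold 98.9 to 319.7 at 5 µM.

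Single copies were compared with limma on log2(FPKM + 1) over all symbols, where a call needed groups more than 1 apart on the log2 scale and a p, adjusted by the Benjamini-Hochberg method, no higher than 0.05. The p-values measure the spread among triplicate cultures of the same cell line. In 5 µM vs. 0 µM, 37 of the 74 copies rose and 0 fell (also 0 at an unadjusted p under 0.05), where 14.1% of all 20051 symbols tested rose and 2.17% fell. By family, the copies that rose were 15 of 21 GAGE, 4 of 6 PAGE, 7 of 9 XAGE, 3 of 9 SSX, 2 of 2 CTAG, 6 of 6 CT45A, 0 of 10 CT47 and 0 of 11 SPANX. The libraries of the 2 groups did not overlap in 39 copies, all higher at 5 µM, against 29.4% of all symbols. Among these copies, SSX4 was at only 1.03e-19 FPKM in 5 µM replicate 2, against 0 in the control. Of the 51 copies tested, 42 were under 10 FPKM in every control library and entered the test through the 5 µM libraries alone. Among the 2395 symbols that entered in the same way, 37.2% rose, as did 28 of those 42 copies. X-linked symbols other than the copies rose in 15.8% of 606 cases. Of the 37 copies that rose, 27 reached at least 10 estimated fragments in a library.

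In 10 µM vs. 0 µM, 9 of the 74 copies rose and 0 fell (13 and 0 at an unadjusted p under 0.05), against 4.07% and 3.4% of 18928 symbols tested. Of the 33 copies tested, 24 were under 10 FPKM in every control library, and these hold all 9 calls, where 15.6% of 1272 such symbols rose. X-linked symbols other than the copies rose in 4.61% of 542 cases. The libraries did not overlap in 19 copies, against 14.4% of all symbols. The 9 copies that rose were PAGE1, PAGE2B, XAGE1A, XAGE1D, XAGE1E, CT45A1, CT45A3, CT45A4 and CT45A6. None of the 21 GAGE copies was called, and 9 of them were higher at 10 µM in every library. For GAGE12C and GAGE12E this rests on 7.87e-05 FPKM in 10 µM replicate 1 against 2.97e-05 FPKM in control replicate 3. XAGE1C, also without overlap, was at 0.0124 FPKM in 10 µM replicate 3 against 0 in the control. Such values are far below 1 fragment. The number called was 5 without control replicate 1, 4 without control replicate 2 and 5 without 10 µM replicate 3. It was 3 with a pseudocount of 1000, 4 with treat against a 2-fold change and 5 when every library was given the same worth of 1 fragment, a setting chosen after seeing the data. That last setting takes the library term back out, so its values are not scaled for depth. The number called was 13 with all 9 libraries in one fit. Scaling moved the split over all symbols: 771 rose and 644 fell as deposited, and 1125 and 284 with median-of-ratios scaling (9 copies up). With an equal worth of 1 fragment, and so no scaling for depth, 176 rose and 8 fell. In 5 µM vs. 0 µM the same equal worth gave 4222 up and 23 down in place of 2818 and 436, with 37 copies up.

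In 10 µM vs. 5 µM, 22 of the 74 copies fell and 0 rose (34 and 0 at an unadjusted p under 0.05), where 4.82% of 20085 symbols fell and 0.129% rose. They were 9 GAGE, 2 PAGE, 5 XAGE, 1 SSX, 1 CTAG and 4 CT45A copies. In 36 copies every library at 10 µM was below every library at 5 µM, against 25.3% of all symbols. Among these copies, SSX4 was at only 1.03e-19 FPKM in 5 µM replicate 2, against 0 at 10 µM. Among symbols under 10 FPKM in every control library, 12.3% of 2569 fell, as did 15 of the 43 such copies tested, and among X-linked symbols without the copies 7.59% of 606. The number of copies that fell was 9 without 5 µM replicate 3 and between 15 and 29 without any other library. This comparison shares its 5 µM libraries with 5 µM vs. 0 µM, so the 2 sets of values are not independent.

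The mean at 10 µM, as a share of that at 5 µM, had a median of 4.85% over the 37 copies that rose at 5 µM, and it was under 10% in 30 of them. Over all 2818 symbols that rose at 5 µM the median was 44.6% and 16.5% were under 10%. Restricted to the 891 of these with no control library at 10 FPKM, the median was 14.4% (44.1% under 10%), and for the 28 copies among them 4.49%. The highest shares belonged to CTAG1A (26.5%) and PAGE1 (22.4%). These shares all rest on the same 5 µM libraries that chose the genes and are given as a description.

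**Figure D4:**
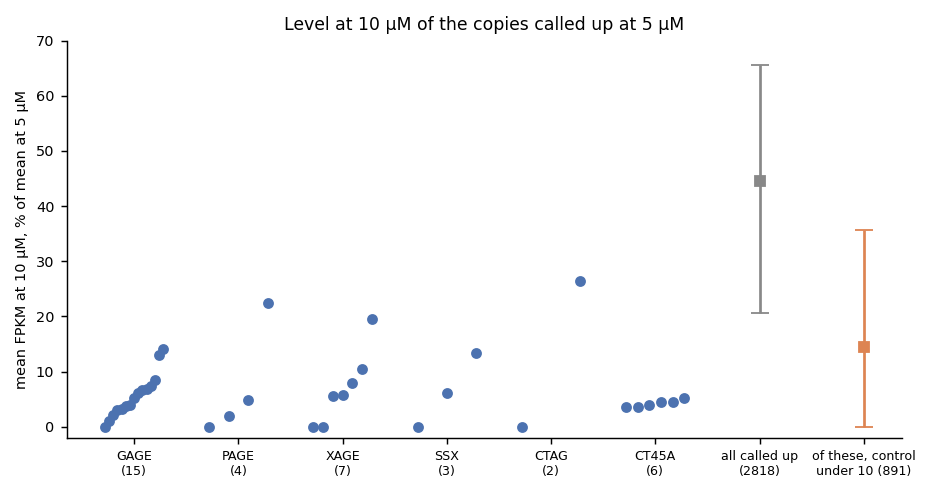
Mean FPKM at 10 µM as a percentage of the mean at 5 µM (vertical axis) for the 37 copies that rose at 5 µM, by family with their number in brackets. Squares with whiskers are the median and quartiles of all 2818 symbols that rose and of the 891 with every control library under 10 FPKM. Most copies lie under 10%, and the medians of the wider sets lie at 44.6% and 14.4%.

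How far a single copy can be told from its relatives was read from the GRCh37 transcripts. The measure was the share of windows of 100 bases (the length of 1 read) found in no other copy of the family. Only the 63 copies with a transcript were compared with each other. Copies without one, such as XAGE2B, and genes outside the symbols taken were left out, so a share can be too high. For 9 of 16 GAGE, 4 of 8 XAGE, 6 of 10 CT47 and 2 of 5 CT45A copies that share was 0%. PAGE copies had 76.2% to 100% of their own. In all, 24 of 63 copies with a transcript had at least 75%, and 9 of these 24 were listed at 0 in every library. Of the 24, 13 rose at 5 µM (15 tested), 2 rose in 10 µM vs. 0 µM (9 tested) and 7 fell from 5 µM to 10 µM (15 tested). Among all symbols tested these calls made up 14.1%, 4.07% and 4.82%. Among symbols under 10 FPKM in every control library they made up 37.2%, 15.6% and 12.3%. In 11 of the 15 tested in 10 µM vs. 5 µM, every library at 10 µM was below every library at 5 µM, against 25.3% of all symbols.

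Among GAGE copies, GAGE12F (chrX:49315881-49332821, plus strand, a range that overlaps GAGE12E) carried 25.4% to 36.9% of the family sum at 5 µM. It was listed at 0, 0 and 1518 FPKM in the control, 55473, 47087 and 88181 FPKM at 5 µM, and 2551, 5514 and 4799 FPKM at 10 µM. The groups did not overlap. The log2 difference was 12.38 (SE 2.85, limma adjusted p = 0.0164) from 0 µM to 5 µM, which depends on the pseudocount because 2 control libraries are at 0, and -3.91 (SE 0.37, limma adjusted p = 0.00383) from 5 µM to 10 µM. The rise was lost under treat and without any 1 of the 5 µM libraries, as were the rises of GAGE8 and GAGE12J. The fall was lost when all 9 libraries were fitted together, as were the falls of GAGE8 and GAGE12J. That of GAGE8 was also lost without 5 µM replicate 3. Only 4.32% of the windows of GAGE12F are its own.

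GAGE8 was at 0, 309 and 236 FPKM in the control, 38386, 19915 and 33865 FPKM at 5 µM, and 1167, 1952 and 479 FPKM at 10 µM. Its value equals that of GAGE2E in 7 of 9 libraries, so the assignment between these 2 symbols is uncertain. GAGE12J rose from 0, 180 and 204 FPKM to 17477, 14768 and 18881 FPKM and fell to 970, 1787 and 1044 FPKM, a log2 difference of -3.80 (SE 0.36, limma adjusted p = 0.00381). GAGE12C stood at 14434, 19912 and 11382 FPKM at 5 µM and at 7.87e-05, 657 and 842 FPKM at 10 µM. For GAGE12C the fall did not pass the test (limma adjusted p = 0.125), although the 3 libraries at 10 µM all lay below those at 5 µM.

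GAGE12D and GAGE13 stayed under 10 FPKM in every library. Whether this reflects how values were split between copies was not tested. GAGE12D, with a promoter identical to that of GAGE12F and no window of its own, was listed at 0.957, 1.57 and 1.13 FPKM at 5 µM. GAGE13 never passed 4.82 FPKM, and 29.9% of its windows are found in no other copy. These and GAGE10 were chosen after their values were seen. GAGE10, with 81.4% of its windows in no other copy, was at 0, 0 and 213 FPKM in the control, 8575, 8091 and 10088 FPKM at 5 µM and 358, 792 and 623 FPKM at 10 µM. It fell by 3.98 on the log2 scale from 5 µM to 10 µM (SE 0.45, limma adjusted p = 0.00538).

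PAGE2B (chrX:55101463-55105342, plus strand) was the highest of all copies. It was listed at 0 in the control, at 151438, 149020 and 180084 FPKM at 5 µM, and at 6441, 7246 and 9622 FPKM at 10 µM. It made up 65% of the PAGE sum at 5 µM, on an estimated 157, 147 and 200.2 fragments. The rise at 5 µM had a limma adjusted p of 7.35e-05 and that at 10 µM vs. 0 µM 0.00267, with no fold given since the control is at 0. From 5 µM to 10 µM the log2 difference was -4.38 (SE 0.20, limma adjusted p = 0.000442). All 3 calls were kept under each of 17 alternatives.

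PAGE5 (chrX:55246779-55250541, plus strand) was at 27188, 45982 and 61719 FPKM at 5 µM and listed at 0 in the 6 other libraries. It rose at 5 µM (limma adjusted p = 0.000128) and fell at 10 µM (limma adjusted p = 0.000561), where the 5 µM libraries held an estimated 29.3 to 71.3 fragments and the 10 µM libraries 0. PAGE1 (chrX:49452050-49460587, minus strand) was at 0 in the control, at 21108, 32580 and 20389 FPKM at 5 µM and at 5327, 9270 and 1989 FPKM at 10 µM. The difference of -2.39 between 5 µM and 10 µM (SE 0.55, limma adjusted p = 0.0532) missed the threshold, although every library at 10 µM lay below those at 5 µM, and the rise from 0 µM to 10 µM passed it (limma adjusted p = 0.00398). Whether PAGE1 and PAGE5 differ in their response was not tested.

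PAGE2, the neighbour of PAGE2B, was at 0, 0 and 2681 FPKM in the control, 15268, 19406 and 15755 FPKM at 5 µM, and 0, 950 and 0 FPKM at 10 µM. Its rise (limma adjusted p = 0.0404) was lost under 9 of 17 alternatives. PAGE3 was above 0 in 1 library at 5 µM (1533 FPKM). PAGE4, known from prostate, was at 0 in all 9 libraries. In order of mean level at 5 µM, PAGE2B (160181 ± 17279 FPKM, SD, n = 3) stood apart from PAGE5 (44963 ± 17288), whereas the libraries of PAGE5 and PAGE1 (24693 ± 6840) overlapped, and PAGE1 and PAGE2 (16810 ± 2262) did not.

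Among XAGE copies, XAGE1A, XAGE1D and XAGE1E carried 23.4% to 32.5% of the sum each at 5 µM. They share all of their windows with other copies and cannot be told apart. XAGE1A lies on the minus strand in GRCh37 and on the plus strand in RefSeq, so the promoter shown under this symbol may belong to another of these copies. XAGE1A was at 0 in the control, 28358, 40676 and 37333 FPKM at 5 µM, and 1178, 4400 and 440 FPKM at 10 µM. It rose at 5 µM (limma adjusted p = 0.000112) and at 10 µM vs. 0 µM (limma adjusted p = 0.00996). Its fall of -4.73 from 5 µM to 10 µM (SE 0.77, limma adjusted p = 0.0155) was lost without any 1 of the 5 µM libraries and under treat.

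XAGE1E went with XAGE1A, at 29259, 40975 and 37815 FPKM at 5 µM and 1178, 4400 and 440 FPKM at 10 µM. XAGE1D was at 24265, 34246 and 27202 FPKM at 5 µM and 589, 5948 and 219.95 FPKM at 10 µM. Its fall (limma adjusted p = 0.0459) was lost under 9 of 17 alternatives, and its rise in 10 µM vs. 0 µM under 4. XAGE1C was at 7925, 9671 and 6333 FPKM at 5 µM, and at 10 µM only replicate 2 was above 1 FPKM, at 2499. XAGE3 and XAGE5, which have sequence of their own, were both at 0 in the control (both named for that reason). XAGE5 was at 1203, 1266 and 2250 FPKM at 5 µM and 0 at 10 µM, on an estimated 1.92 to 3.84 fragments. XAGE3 was at 7007, 2458 and 4898 FPKM at 5 µM and 0, 2797 and 0 FPKM at 10 µM, so that 1 library at 10 µM lay within the 5 µM range. XAGE2 and XAGE2B were at 0 throughout.

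Among SSX copies, SSX3, SSX1 and SSX2 rose at 5 µM and all were at 0 in the control. SSX3 (chrX:48205862-48216142, minus strand) was at 3589, 5044 and 3914 FPKM at 5 µM and 0, 0 and 767 FPKM at 10 µM. SSX1 (chrX:48114827-48126879, plus strand), with the 5 CG dinucleotides shown above, was at 1829, 4812 and 1995 FPKM and then 0, 730 and 431 FPKM. SSX2 (chrX:52725946-52736228, minus strand) was at 3234, 2141 and 2010 FPKM and then at 0 in all 3 libraries. Of these, the fall passed the test for SSX2 (limma adjusted p = 0.004) but not for SSX3 (0.0929) or SSX1 (0.225). The estimated fragments at 5 µM were 5.74 to 15.7 for the 3 copies, and at 10 µM at most 1.91. SSX5, SSX6 and SSX8 were at 0 in every library.

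CTAG2, the gene of LAGE-1 (chrX:153880246-153881853, minus strand), was at 2677, 5237 and 4396 FPKM at 5 µM and 0 in the other 6 libraries. It rose (limma adjusted p = 0.000327) and fell again (limma adjusted p = 0.00345). CTAG1A, the gene of NY-ESO-1 (chrX:153813397-153815075, plus strand), was at 2273, 1040 and 924 FPKM at 5 µM, 1122, 0 and 0 FPKM at 10 µM and 0 in the control. Its groups at 5 µM and 10 µM overlapped (limma adjusted p = 0.173). It stood on 2 entries of equal values, which were summed.

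The 6 CT45A copies were close to each other. Each carried between 6.49% and 22.3% of the family sum at 5 µM, and all 6 rose. CT45A1 was at 4690, 8343 and 8723 FPKM at 5 µM and 189, 499 and 282 FPKM at 10 µM, against 0 in the control. CT45A4 was at 5964, 8058 and 6962 FPKM and then 283, 267 and 401 FPKM. Both fell from 5 µM to 10 µM, by -4.54 for CT45A1 (SE 0.56, limma adjusted p = 0.00721) and -4.47 for CT45A4 (SE 0.45, limma adjusted p = 0.00425). CT45A3 fell likewise, and CT45A5 did not pass (limma adjusted p = 0.0928), with 0, 72.3 and 640 FPKM at 10 µM. The calls of CT45A1, CT45A3 and CT45A4 in 10 µM vs. 0 µM rest on an estimated 0.156 to 1.3 fragments per library at 10 µM and were lost under 8 or 9 of 17 alternatives.

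**Figure D5:**
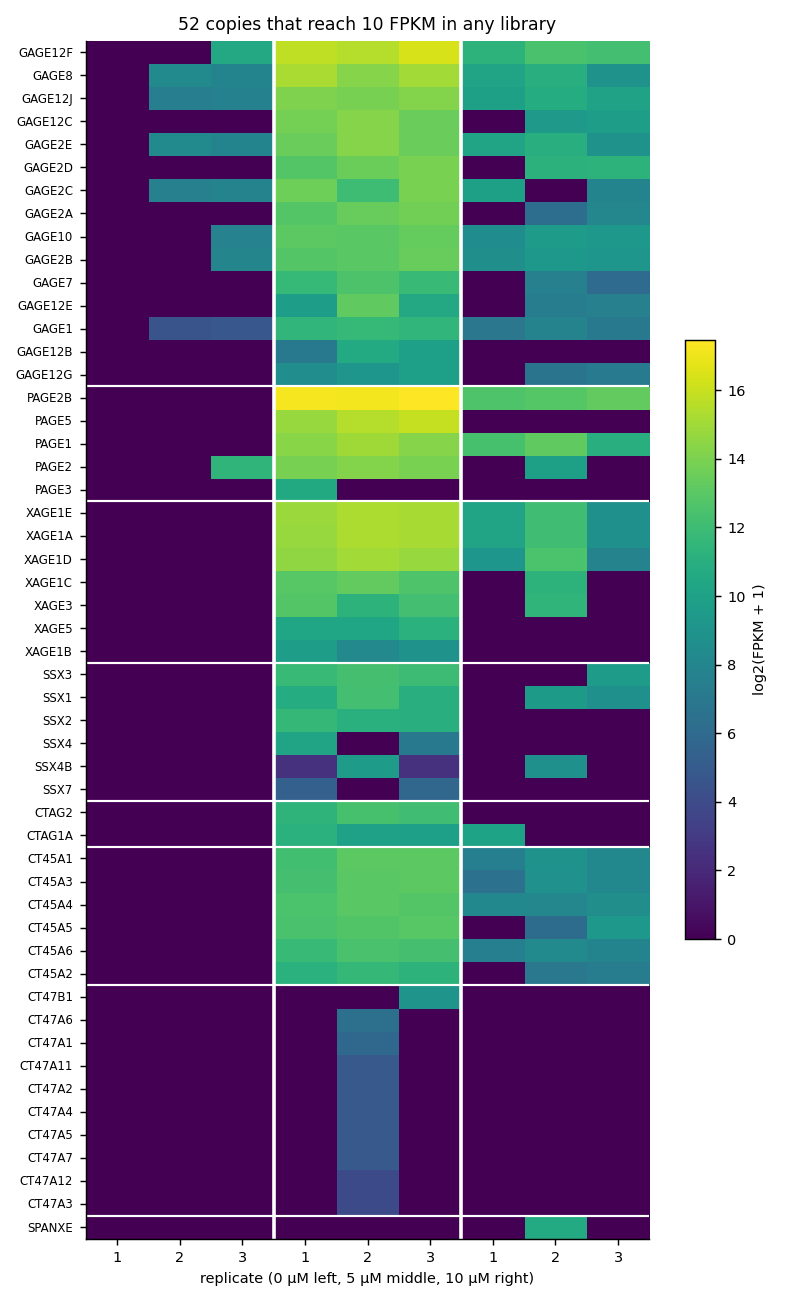
log2(FPKM + 1) of the 52 copies that reach 10 FPKM in any library (rows, by family and then by mean), in the 9 libraries (columns, by concentration and replicate). The 5 µM block is bright in GAGE, PAGE, XAGE, SSX, CTAG and CT45A, and the CT47 and SPANX rows are dark except for 1 library each.

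The 11 symbols that share only the first letters were not called in any of the 3 comparisons. SSX2IP, the gene of an SSX2-binding protein at adherens junctions and centrosomes (chr1:85109389-85156486), was at 44766, 46149 and 40238 FPKM in the control, 27561, 34213 and 30619 FPKM at 5 µM and 27471, 32865 and 20518 FPKM at 10 µM. Its log2 difference at 5 µM was -0.51 (SE 0.12, limma adjusted p = 0.0186), within the 2-fold limit. Including it in the SSX sum moved the log2 difference between 10 µM and 5 µM from -6.49 to -0.58.

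Of 45 other cancer-testis genes in the files, 22 rose at 5 µM and 0 fell, 4 rose at 10 µM vs. 0 µM (DAZL, MAEL, TDRD1 and TKTL1), and 11 fell from 5 µM to 10 µM. Over all symbols tested 14.1%, 4.07% and 4.82% were called in these directions, and over symbols under 10 FPKM in every control library 37.2%, 15.6% and 12.3%. The median of the other cancer-testis genes' log2 difference was 7.98 at 5 µM (38 tested) and -3.91 from 5 µM to 10 µM (39 tested), beside 10.54 and -4.65 for the copies (51 and 52 tested) and 0.14 and -0.31 for all symbols (-0.15 in 10 µM vs. 0 µM). Of the methylation machinery, the mRNA of the maintenance methyltransferase DNMT1 was 105662 to 120542 FPKM in the control and 124596 to 137102 FPKM at 5 µM, a log2 difference of 0.17 (limma adjusted p = 0.146). The de novo enzyme DNMT3A differed by -0.02 (limma adjusted p = 0.872). DNMT3B rose by 1.35 (limma adjusted p = 0.0221) and UHRF1, which guides DNMT1 to copied DNA, by 1.11 (limma adjusted p = 0.000995). From 5 µM to 10 µM none of these 4 genes was called, with differences of -0.42 to 0.29.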

How the data were processed

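RNA-Seq data were generated by the authors from 9 HT-29 cultures as paired ends of 100 bases. According to the paper's methods and the labels, TopHat was used by the authors for alignment to hg19, and Cufflinks for the FPKM values. The 9 deposited files hold these FPKM values per gene symbol, and no raw counts were used here. The authors' library term is not given in the sources used here, and an exact 0 can be a failed estimate.

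Groups were taken from the sample labels. FPKM of entries under 1 symbol were summed and transformed as log2(FPKM + 1). Each comparison used its 6 libraries in limma 3.58.1 (R 4.3.3, lmFit and eBayes with a trend). Symbols reaching 10 FPKM in either group were tested, and p-values were Benjamini-Hochberg adjusted over all of them. The tests were run on simulated data with a log2 change of 2. How the tests behave at the few fragments of the copies in the control and at 10 µM was not tested. Family sums were not tested. The members and gene lists were chosen with earlier results of these data known. Named copies are the called ones, up to 4 per family by mean FPKM, and the highest where none was called. Exceptions are marked in the text or have sequence of their own.

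Fragments were estimated because depth is not in the files: the 46 non-zero values of 12 microRNA genes, each 110 nucleotides long, came out as whole numbers (tolerance 0.01) of 1 step per library, and for 121 of 255 longer genes with clean steps the step followed length within 15%. They are rough, and were not tested as counts. Promoters are RefSeq GRCh38.p14, positions GRCh37. Python 3.11.15 was used with pandas 2.3.3 and numpy 2.4.6, and matplotlib 3.10.9 for plots.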

Additional observations from a re-analysis of the deposited data

How the results depend on the processing

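At 5 µM, 30 to 37 copies were called up under the settings tried, or 27 when only copies with at least 10 estimated fragments in a library are counted (also chosen after seeing the data, like counting equal entries once). Of the 51 copies tested, 42 were under 10 FPKM in every control library, so their direction could hardly change. The 27 copies that pass the fragment limit reach it at 5 µM and all were called, so this count is no separate check. In 10 µM vs. 0 µM the count of 9 copies was 3 with a pseudocount of 1000, 4 with treat and 5 with the replicate block. It was 5 with an equal worth of 1 fragment in every library (chosen after seeing the data, and not scaled for depth). With 1 replicate left out it was 4 to 9. It rose to 13 with all 9 libraries in one fit. In 10 µM vs. 5 µM, 22 copies fell, 9 to 29 with 1 replicate left out, 31 with a pseudocount of 1000 and 16 with all 9 libraries in one fit, and in 5 µM vs. 0 µM 37 rose, 30 to 37 with 1 left out. With the replicate block 37 copies rose at 5 µM and 19 fell from 5 µM to 10 µM. The labels give each group the same replicate numbers, but libraries of the same number did not deviate together (correlations of -0.231 to 0.148, against -0.309 to 0.246 for different numbers). The main fits therefore used no pairing, although 9 such correlations cannot exclude one.

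Leaving out 1 library gave log2 differences of the sums of 6.88 to 12.63 (GAGE) and 12.21 to 14.20 (PAGE) in 5 µM vs. 0 µM, beside 10.46 and 14.11 with all libraries; the GAGE values at the low end are those without control replicate 1. In 10 µM vs. 0 µM they were 2.76 to 8.51 (GAGE) and 8.01 to 10.01 (PAGE), beside 6.34 and 9.91. In 10 µM vs. 5 µM they were -4.37 to -3.83 (GAGE), -4.39 to -4.10 (PAGE), -5.99 to -3.89 (XAGE), -8.21 to -3.09 (SSX), -9.12 to -7.36 (CTAG) and -4.93 to -4.23 (CT45A), beside -6.49 for SSX (-3.09 without 10 µM replicate 1) and -9.04 for CTAG with all libraries. No value is given for PAGE without control replicate 3 or CTAG without 10 µM replicate 1, which leave a group at 0. A pseudocount of 1000 gave 7.32 and 3.22 for PAGE in 5 µM and 10 µM vs. 0 µM, and -2.34 (CTAG) and -3.88 (CT45A) in 10 µM vs. 5 µM. An equal worth of 1 fragment, without scaling for depth, gave -4.69 (GAGE) and -4.77 (PAGE). Summing every symbol of a prefix gave -0.58 for SSX and -0.0545 for CTAG, where SSX2IP and the CTAGE genes carry the sum. Of the calls of named copies, 17 of 21 in 5 µM vs. 0 µM, 2 of 8 in 10 µM vs. 0 µM and 5 of 13 in 10 µM vs. 5 µM were kept under every alternative. The cause of the other changes was not tested.

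Depth limits what can be said of the control and of 10 µM, where a family sum rests on at most 2.9 and 18 estimated fragments per library. At such numbers counting error is large, and limma was not given the fragments.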
